A study of Mus musculus with 2 samples.

Results

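The genes described here encode the chaperones of the mouse cytosol and mitochondria: the HSP70 and HSP90 families, their J-protein, BAG and other cochaperones, the mitochondrial chaperonin, the cytosolic chaperonin TRiC, the small heat shock proteins and the heat shock transcription factors. They were taken by a name pattern from the protein-coding rows of the deposited table, leaving out the endoplasmic reticulum (ER) chaperone genes Hspa5, Dnajb9, Dnajb11 and Dnajc3. The pattern found 92 genes among 46095 in the table. It rests on names alone, so it also holds Dnajc1 and Dnajc10, which encode J-proteins of the ER, Hspa13, whose product is tied to microsomes, Hsf2bp, whose product binds HSF2 and is no chaperone, and Dnajc19-ps, which the table types as mRNA although its name marks a pseudogene.

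Chaperones bind proteins that are not yet folded or have lost their fold. In the HSP70 cycle a J-protein delivers the client and triggers ATP hydrolysis, and a nucleotide exchange factor of the HSP110 or BAG family then lets the client go. Clients such as kinases and steroid receptors pass on to HSP90, actin and tubulin fold inside the TRiC ring, and proteins imported into mitochondria fold with the mitochondrial HSP70 and the HSP60-HSP10 chaperonin. Heat shock factor 1 (HSF1) raises many of these genes under proteotoxic stress by binding heat shock elements, which are inverted repeats of the unit NGAAN. Rapidly growing blood cell precursors and leukaemia cells are known to keep cytosolic chaperones at a high level.

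The study holds 2 RNA libraries of leukaemia-initiating cells from mouse acute myeloid leukaemia (AML), sorted from bone marrow as Mac1-positive and c-Kit-positive, from C57BL/6 mice aged 8 weeks. One library is labelled wild type with a title that ends in Scr, and the other is labelled P2x7-KO, a knockout of the ATP-gated channel P2X7 encoded by P2rx7, with a title that ends in KD. The sources used here do not give the leukaemia driver, the way P2rx7 was disrupted, or how many mice fed a library. With 1 library per genotype there is no replicate error and no test, and every interval below covers counting error only.

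The libraries held 12456212 counts (wild type) and 12435916 counts (P2x7-KO), so a gene at 0 is limited to 0.247 and 0.236 CPM, taking 3 counts as the limit (CPM, counts per 1000000 after TMM scaling, with exact 95% counting intervals in parentheses). The targeted gene went against its label: P2rx7 had 229 against 543 counts (wild type against P2x7-KO, the order used throughout), a level 2.27-fold (1.94 to 2.66) higher in the library labelled P2x7-KO. Directions are therefore given by label only. Both sort genes were present, Kit at 45.95 against 67.6 CPM and Itgam at 187 against 543 CPM. Of the markers of other blood cells, 7 monocyte and macrophage genes summed to 2089.6 against 3206 CPM. At least 2-fold higher were 4 of them (10.8% of all genes counted) and 0 were lower (8.95% of all genes counted). Cd68, at a ratio of 0.817 (0.776 to 0.861), and Ly6c2, at 0.965 (0.941 to 0.99), lay below equality. A set of 5 mast cell and basophil genes summed to 379 against 40.1 CPM, with Fcer1a at 0 in both libraries. Most of that sum was Cpa3, at 334 against 22.0 CPM. Hdc was 11.6-fold and Mcpt8 1.43-fold lower, and Ms4a2 had 13 against 11 counts. The 7 neutrophil genes summed to 3341 against 2778 CPM and went both ways, with Mmp8 3.89-fold higher and S100a8 2.53-fold lower. The 4 dendritic genes summed to 829 against 918 CPM and all lay above equality, though the interval of Flt3, at a ratio of 1.02 (0.975 to 1.06), held equality. Irf8 and Flt3 made up most of that sum, while Siglech, with 3 against 25 counts, was 7.96-fold and Cd74 2.84-fold higher. Summed levels were 1.32 against 10.5 CPM for 6 erythroid genes and 132 against 99.2 CPM for 7 B lymphoid genes. The B lymphoid genes went both ways: Ighm was 2.36-fold lower, Igkc 5.83-fold and Jchain 10.5-fold higher. The sums were 35.02 against 11.3 CPM for 5 T and NK lymphoid genes and 39.2 against 9.42 CPM for 4 megakaryocyte genes. The first was nearly all Nkg7 (25.2 against 8.25 CPM) and Il7r (9.62 against 2.36 CPM), with the Cd3 genes at no more than 4 counts in a library. The second was nearly all Itga2b (38.9 against 8.95 CPM), with Gp9 at 4 against 6 counts and Pf4 and Ppbp at 0 in both libraries. The part of these cell markers in the chaperone values was not tested, and in bulk RNA fewer cells of a type and less RNA per cell cannot be told apart.

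Of the chaperone genes, 67 had at least 20 counts over both libraries and are the ones counted, 11 had 1 to 19, and 14 were at 0 in both. Together they took 1.38% of counts (1.37 to 1.38, Clopper-Pearson 95%) against 1.0997% (1.09 to 1.11). Most of the genes stood slightly lower under the P2x7-KO label: 48 of 67 lay below equality and 19 above it. The median log2 ratio was -0.33, against 0.005 over all 13363 genes counted, and the interquartile range of the chaperone genes ran from -0.61 to 0.21. A counting interval wholly below equality was found for 39 of them, 58.2% where all genes gave 34.7%, and one wholly above it for 12, 17.9% where all genes gave 35.6%.

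Large differences were few. A gene was called when its ratio reached 2 in either direction and its interval left out equality. By this rule 7 of 67 chaperone genes were lower, 10.4% where all genes gave 8.95%, a share near the background for unadjusted ratios. Only 2 were higher, 2.99% where all genes gave 10.8%. The 7 were Hspa2, Hspe1, Dnajb1, Dnajb2, Dnajb13, Dnajc28 and Bag2, and the 2 were Dnajb14 and Dnajb5. At a ratio of 1.5 the counts were 16 lower (all genes 18.9%) and 5 higher (all genes 21.1%). Just inside the 2-fold line stood Dnajb5 at 2.06-fold and Dnajb1 at 2.14-fold, and just outside it Dnajc25 at 1.899-fold. Hsf4 passed the ratio, at 2.198-fold (0.991 to 5.23) lower, but its interval held equality.

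**Figure D1:**
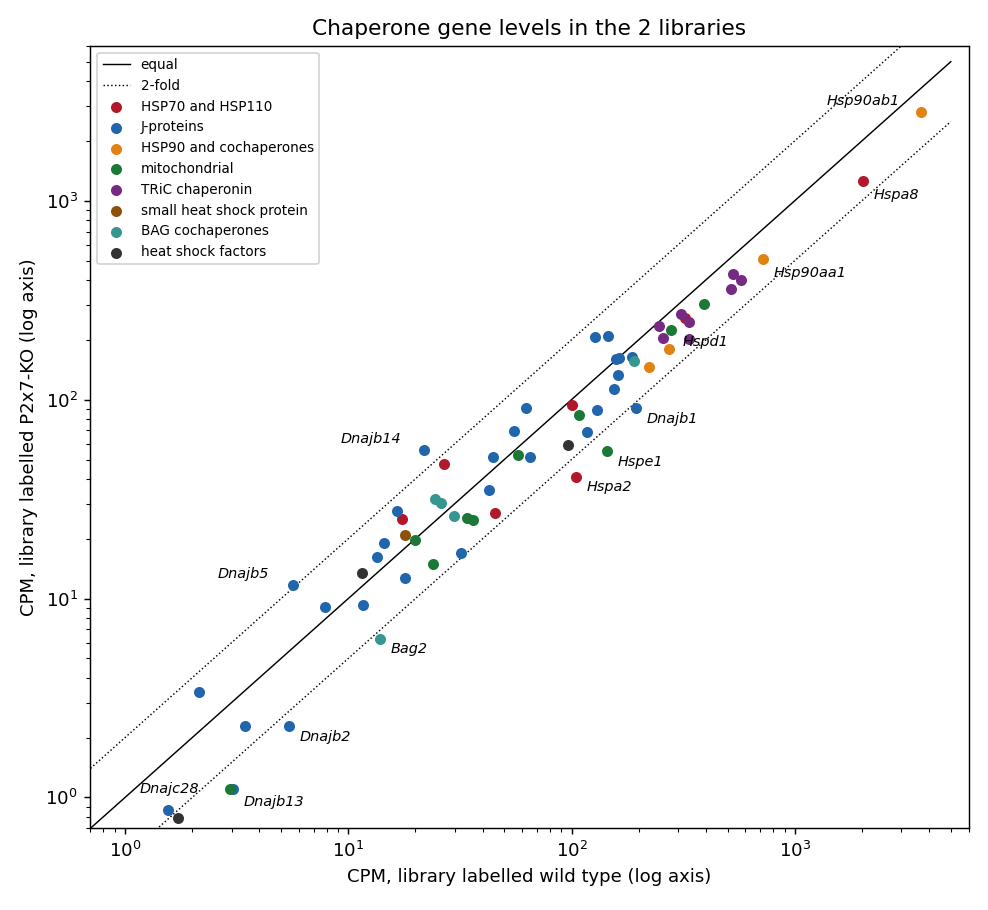
CPM of the 67 counted chaperone genes in the library labelled wild type (x) and the library labelled P2x7-KO (y), both on log axes, 1 point per gene coloured by role. The solid line marks equal levels and the dotted lines a 2-fold difference, and 48 points lie below the solid line.

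Ratios in these libraries moved with transcript length over the whole table, and this touches every value below. Over all genes the median log2 ratio went from -0.71 in the length decile with the shortest transcripts to 0.65 in that with the longest. Among the chaperone genes the same order held: the median was -0.46 for 32 genes under 2500 bases, -0.38 for 19 genes of 2500 to 4000 bases and 0.38 for 16 longer ones. All genes of these 3 length classes had medians of -0.34, 0.05 and 0.44. Across the 67 genes, which share both libraries, log2 length and log2 ratio had Pearson's r of 0.45 and Spearman's rho of 0.36. A second value is therefore given where it matters, the log2 ratio after the trend with transcript length and GC content over all genes was taken out. The chaperone median was then -0.28, against -0.02 over all genes. At least 2-fold lower were 9 of 67 genes (all genes 5.55%), and 1 was higher (all genes 7.77%). The genes called lower were not all the same: Hspe1 and Bag2 dropped out, and Dnaja1, Dnajc15, Dnajc25 and Hsph1 came in. For those that came in, the adjustment used longest annotated transcripts of 5622, 6193, 4023 and 3802 bases. These transcripts need not be the ones expressed.

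**Figure D2:**
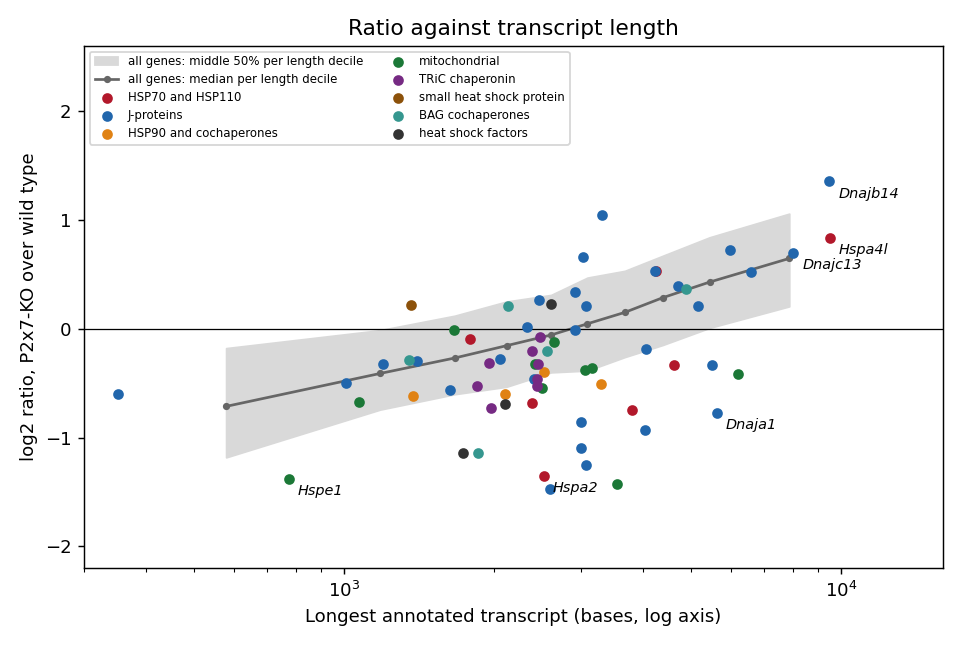
Log2 ratio of each counted chaperone gene (points, coloured by role) against the length of its longest annotated transcript in bases (log axis), over the median (line) and interquartile range (band) of all genes in length deciles. Hspe1 at 774 bases and Dnajb14 at 9477 bases lie at opposite ends of the trend, while Hspa2 lies well below the line at 2526 bases.

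Among the promoters searched for heat shock elements, one stretch is shared by 2 chaperone genes, Hspe1 and Hspd1, the genes of the mitochondrial cochaperonin HSP10 and of the chaperonin HSP60 with which it forms a folding chamber. The RefSeq promoter table (GRCm38.p6, 250 bases before to 50 bases after each start site) held 73 of the 92 genes. Of the 19 not searched, 16 were counted ones, among them Hspa8, Hspa9, Hsp90aa1, Hsp90ab1 and Hsf1. The table was searched on both strands for 3 joined heat shock units, that is GAA, TTC and GAA, or TTC, GAA and TTC, with 2 free bases between neighbours, and matches may overlap. A match was found for 4 chaperone genes, 5.48% of the 73, and for 0.662% of all 27025 genes in the table. Dnajb1, Bag3, Hspa1a, Hspa1b and Hspb1 were among the genes searched and held none. A looser pattern of 2 joined units occurred in 30.1% of the 73 and in 17% of all genes. Hspe1 and Hspd1 run in opposite directions. RefSeq gives Hspd1 a pair of start sites, 95 bases downstream and 216 bases upstream of the Hspe1 start, and the match belongs to the second. The matches of both genes are the same stretch of DNA, chr1:55088054-55088081 (GRCm38.p6), read on the plus strand for Hspe1 (positions -94 to -67 from its start) and on the minus strand for Hspd1 (positions -149 to -122). In GENCODE M21 the stretch also lies within the first exon, with no coding sequence over it, of an Hspd1 transcript that begins at the other start. The other matches lay before the start of Dnajb6, at chr5:29735847-29735869 on the plus strand, and within the first transcribed bases of Hsph1, from position 16 after its nearest start on the minus strand of chromosome 5. The lines below give these stretches 5′ to 3′ with the matches in capitals, and for Hsph1 the match alone.
Hspe1: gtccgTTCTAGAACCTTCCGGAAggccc
Hspd1: gggccTTCCGGAAGGTTCTAGAAcggac
Dnajb6: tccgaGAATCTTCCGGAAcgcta
Hsph1: TTCTGGAAAGTTC
In the first and second lines 2 matches overlap. A match is a description of letters and does not show that a factor binds there.

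These 4 genes did not move alike. Hspe1 was lower by 2.61-fold (2.39 to 2.85) and Hsph1 by 1.68-fold (1.47 to 1.93), Hspd1 by 1.25-fold (1.19 to 1.32), and Dnajb6 was 1.27-fold (1.15 to 1.403) higher in the library labelled P2x7-KO. Hspe1, at chr1:55088132-55091307 (plus strand) in mm10 by GENCODE M21, had 1747 against 702 counts, or 144 CPM (137 to 151) against 55.1 CPM (51.1 to 59.4). Its partner Hspd1, at chr1:55077835-55088243 (minus strand), had 3407 against 2850 counts, or 280.1 CPM (271 to 289.6) against 224 CPM (216 to 232). Thus for every 100 Hspd1 counts there were 51.3 against 24.6 Hspe1 counts, a 2.08-fold lower proportion (1.88 to 2.31, exact 95% interval of the odds ratio) that no library scaling can alter. This pair, like the other pairs below, was picked after its values were seen. Hspe1 has the shorter transcript, 774 against 2423 bases, and the adjustment moved its log2 ratio from -1.38 to -0.902 (-1.03 to -0.77), under 2-fold, and that of Hspd1 from -0.32 to -0.36 (-0.44 to -0.29). The proportion was then 1.45-fold lower (1.31 to 1.61). Both genes have copies elsewhere: 44.8% of the 50-base stretches of the longest Hspe1 transcript and 44.8% of those of Hspd1 also occur in a transcript of another gene, so their counts depend on how the unnamed counting program treated multiply matching reads.

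The mitochondrial genes lay on 1 side of equality. All 10 were counted and all lay below equality, where 49.8% of all genes did. Of them 2 were called lower (all genes 8.95%) and 0 higher, with a median log2 ratio of -0.396 (-0.46 after adjustment, where 9 of 10 lay below equality). Hspa9, the mitochondrial HSP70 that pulls proteins through the import channel, stood at 393 against 302 CPM and was 1.302-fold (1.25 to 1.36) lower. Dnajc28, a little-studied J-protein gene and the second called one, had only 36 against 14 counts and was 2.69-fold (1.42 to 5.403) lower. Dnajc19, whose product sits at the import motor, stood at 36.2 against 24.9 CPM (1.45-fold lower) and its relative Dnajc15 at 33.95 against 25.5 CPM (1.33-fold lower, and past 2-fold at a log2 ratio of -1.01 (-1.22 to -0.79) after adjustment). Dnajc11, linked to the architecture of the inner membrane, was 1.29-fold lower and Dnajc4 1.59-fold lower. After adjustment Dnajc4 was at -0.08 (-0.35 to 0.19) on the log2 scale, an interval that held equality. Dnaja3 and Dnajc30 had intervals that held equality, at ratios of 0.918 (0.825 to 1.02) and 0.995 (0.831 to 1.19), and the sign of Dnajc30 turned under total count scaling, under DESeq2 scaling and after adjustment.

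**Figure D3:**
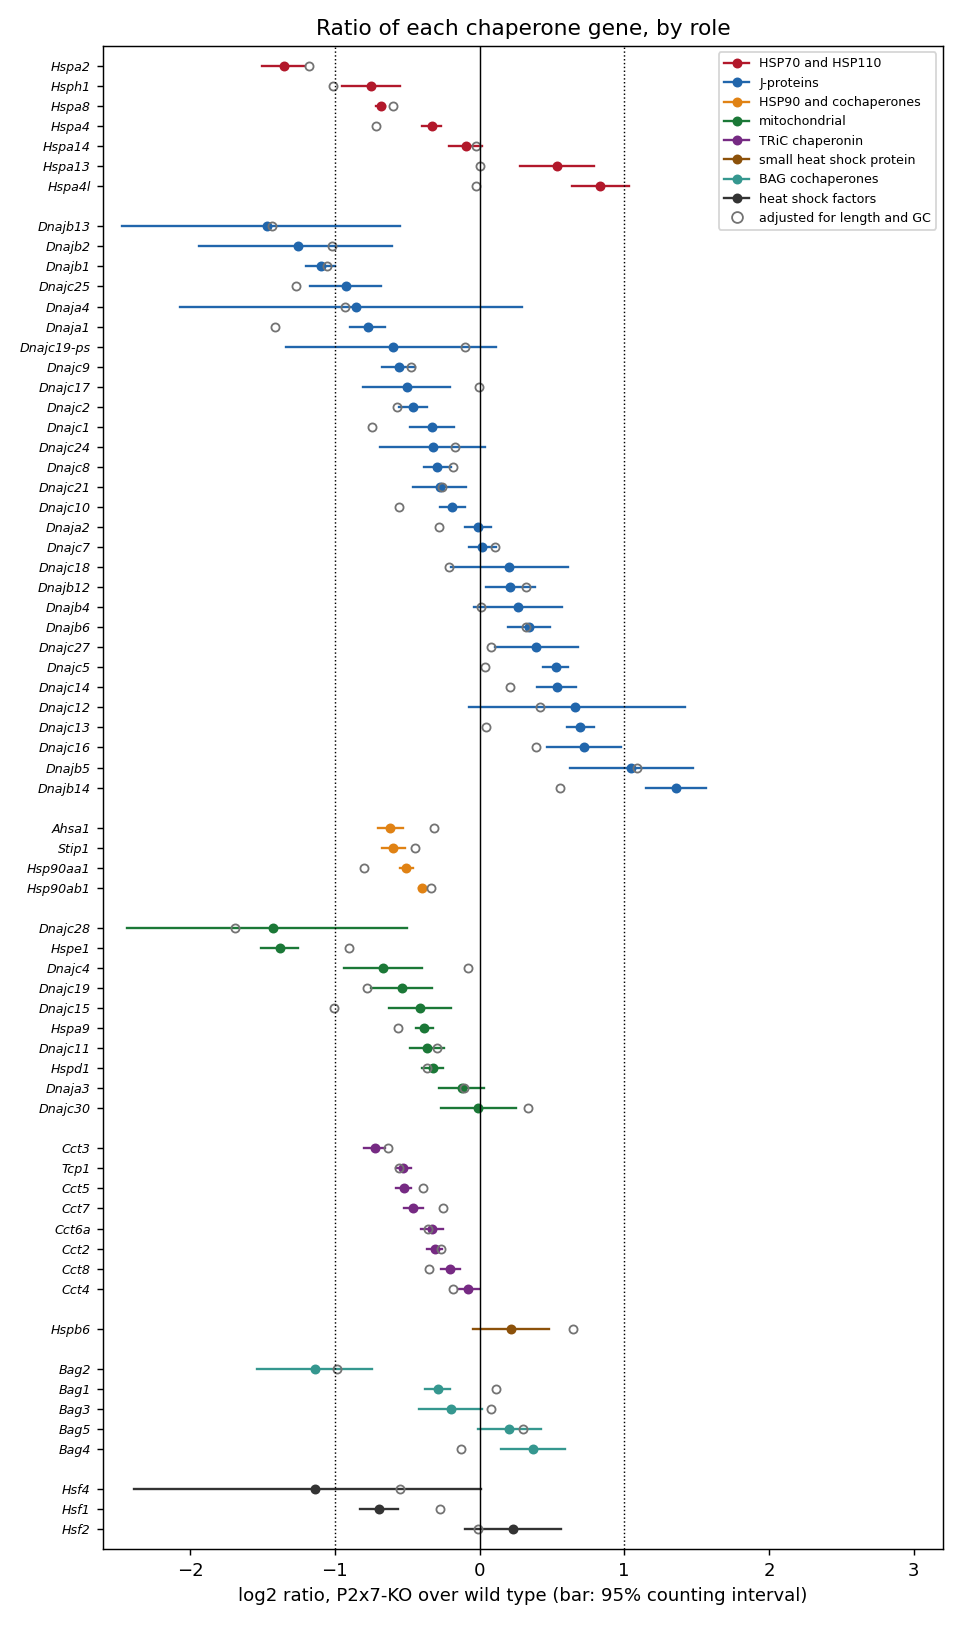
Log2 ratio (library labelled P2x7-KO over library labelled wild type) of the 67 counted chaperone genes, grouped by role and ordered within each group. Filled points are ratios with bars for the 95% counting interval, open points are ratios after adjustment for length and GC content, and dotted lines mark 2-fold. All mitochondrial, HSP90 and TRiC genes lie left of equality before adjustment, while J-protein genes lie on both sides.

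In the HSP70 group outside mitochondria, which here includes Hspa13, 1 of 7 counted genes was called lower (all genes 8.95%) and 0 higher (all genes 10.8%). The other 6 were neither. Hspa2, at chr12:76404176-76406938 (plus strand), encodes an HSP70 best known from male germ cells. It had 1273 against 522 counts, or 105 CPM (98.98 to 111) against 40.99 CPM (37.6 to 44.7). It was 2.55-fold (2.304 to 2.83) lower, shares no 50-base stretch with another gene, and remained past 2-fold after adjustment, at a log2 ratio of -1.18 (-1.33 to -1.03). Hspa8, the constitutive cytosolic HSP70 and the most abundant of the group, stood at 2024 against 1259.8 CPM and was 1.61-fold (1.57 to 1.64) lower. It has many processed copies, and 74.8% of its 50-base stretches also occur in other genes' transcripts. Relative to Hspa8, Hspa2 was lower by 1.59-fold (1.43 to 1.77), and by 1.5-fold (1.35 to 1.67) after adjustment.

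The HSP110 branch, which exchanges nucleotide on HSP70, was split. Hsph1 stood at 45.3 against 26.9 CPM (1.68-fold (1.47 to 1.93) lower, and at a log2 ratio of -1.01 (-1.21 to -0.82), past 2-fold, after adjustment) and Hspa4 at 323 against 257 CPM (1.26-fold (1.201 to 1.32) lower). Hspa4l stood at 26.7 against 47.7 CPM and was 1.78-fold (1.56 to 2.05) higher, but its annotated transcript is 9479 bases long and the adjustment took its log2 ratio from 0.84 to -0.03 (-0.22 to 0.17). Outside this branch, the log2 ratio of Hspa13 also fell after adjustment, from 0.53 (17.4 against 25.2 CPM) to 0.003 (-0.25 to 0.26). Hspa14, which works with the ribosome-bound J-protein Dnajc2 on nascent chains, had a ratio of 0.936 (0.863 to 1.01).

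The heat-inducible HSP70 genes Hspa1a and Hspa1b were near the limit of detection. Hspa1a had 4 against 1 counts and Hspa1b 3 against 2 counts. Of the other HSP70 genes not counted, Hspa12a had 2 against 1 counts, and Hspa1l and Hspa12b were at 0 in both libraries. Hspa1a and Hspa1b are near-identical copies, with 66.3% and 62.3% of their 50-base stretches found in another gene, and their counts are uncertain for that reason. Their sum, 7 against 3 counts, is too small to show a difference at this depth.

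The J-proteins outside the mitochondrial group spread widest. Of 36, 29 were counted, with 3 called lower (all genes 8.95%), 2 higher (all genes 10.8%) and a median log2 ratio of -0.19. The B class held all 5 called genes. Dnajb1, at chr8:83608193-83612653 (plus strand), is the main heat-inducible partner of cytosolic HSP70 and a textbook HSF1 target. It had 2358 against 1153 counts, or 194 CPM (186 to 202) against 90.5 CPM (85.4 to 95.9), and was 2.14-fold (1.99 to 2.299) lower. After adjustment its log2 ratio was -1.05 (-1.16 to -0.95), still past 2-fold. Against Hspa8, with which it works, its proportion was 1.33-fold lower (1.24 to 1.44), and 1.37-fold lower (1.28 to 1.48) after adjustment.

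Dnajb2, at chr1:75236406-75245692 (plus strand), encodes a ubiquitin-binding J-protein best known from neurons and had 66 against 29 counts (2.38-fold (1.52 to 3.82) lower). Dnajb13, at chr7:100501716-100514960 (minus strand), encodes a J-protein of cilia and sperm tails and had 37 against 14 counts (2.77-fold (1.46 to 5.54) lower). Both rest on few counts, as their intervals show.

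Dnajb14 and Dnajb12 encode related J-proteins of the ER membrane that face the cytosol. Dnajb14, at chr3:137867675-137916557 (plus strand), had 266 against 713 counts, or 21.9 CPM (19.3 to 24.7) against 55.99 CPM (51.96 to 60.3), and was 2.56-fold (2.22 to 2.96) higher. Dnajb12 stood at 44.6 against 51.7 CPM (1.16-fold (1.03 to 1.302) higher). Dnajb14 thus had 49.1 against 108 counts for every 100 of Dnajb12, a 2.21-fold higher proportion (1.84 to 2.66). The Dnajb14 transcript is 9477 bases long, and the adjustment took its log2 ratio from 1.36 to 0.55 (0.35 to 0.76), under 2-fold. Its proportion to Dnajb12 was then 1.18-fold higher (0.977 to 1.42), an interval that held equality. Dnajb5, at chr4:42949814-42959425 (plus strand), had 69 against 149 counts and was 2.06-fold (1.54 to 2.79) higher, and remained past 2-fold, at a log2 ratio of 1.09 (0.67 to 1.52), when adjusted for length and GC content. After adjustment for length alone it was just under 2-fold. Dnajb6, which keeps aggregation-prone proteins soluble, stood at 55.1 against 69.8 CPM, and Dnajb4 had a ratio of 1.201 (0.973 to 1.49).

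Among the A class, Dnaja1 stood at 117 against 68.6 CPM and was 1.71-fold (1.57 to 1.86) lower, while Dnaja2, the other main cytosolic partner of HSP70 in this class, stood at 164 against 162 CPM with a ratio of 0.991 (0.932 to 1.05). Dnaja1 had 71.7 against 42.3 counts per 100 of Dnaja2, a 1.69-fold lower proportion (1.53 to 1.88). After adjustment this proportion was 2.19-fold lower (1.98 to 2.44). With its longest transcript of 5622 bases, the adjusted log2 ratio of Dnaja1 was -1.41 (-1.54 to -1.29), past 2-fold, and 28.8% of its 50-base stretches recur in other genes. Dnaja4 had 19 against 11 counts, with an interval that held equality.

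None of the C class outside mitochondria was called. The lower side held Dnajc25 at 32.1 against 16.9 CPM (1.899-fold (1.604 to 2.25) lower, and past 2-fold at -1.27 (-1.51 to -1.02) on the log2 scale after adjustment), Dnajc9, a histone chaperone gene, at 131 against 88.6 CPM (1.47-fold (1.36 to 1.59) lower) and Dnajc2, whose product sits at the ribosome, at 156 against 113 CPM (1.37-fold (1.28 to 1.47) lower). The higher side held Dnajc13, an endosome gene, at 128 against 207 CPM (1.62-fold (1.52 to 1.73) higher), Dnajc5, which encodes the cysteine string protein of secretory vesicles, at 145 against 209 CPM (1.44-fold (1.36 to 1.53) higher), Dnajc16 (1.65-fold (1.38 to 1.97) higher) and Dnajc14 (1.45-fold (1.32 to 1.59) higher). After adjustment the log2 ratios of Dnajc13 and Dnajc5 were 0.04 (-0.05 to 0.13) and 0.04 (-0.05 to 0.13), intervals that held equality, and those of Dnajc16 and Dnajc14 were 0.39 and 0.21. Dnajc7, which links HSP70 to HSP90, had a ratio of 1.01 (0.953 to 1.08). The rest ran from 1.52-fold lower for Dnajc19-ps to 1.58-fold higher for Dnajc12, both with intervals that held equality. In between lay Dnajc17, Dnajc1, Dnajc24, Dnajc8, Dnajc21 and Dnajc10 on the lower side and Dnajc18 and Dnajc27 on the higher one. Dnajb3 and Dnajc22 had at most 2 counts in a library, and Dnajb7, Dnajb8, Dnajc5b, Dnajc5g and Dnajc6 were at 0 in both.

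The HSP90 machine was the largest of the roles by counts and moved as a block of small differences. Its 4 genes took 0.476% against 0.3701% of counts, all 4 lay below equality, and none was called. Hsp90ab1, the constitutive cytosolic HSP90, was the most abundant chaperone gene, with 44553 against 35427 counts, or 3663 CPM (3629 to 3697) against 2782 CPM (2753 to 2811) (1.32-fold (1.298 to 1.33) lower). Per length of transcript it also led, at 1453 and 1104 CPM per kilobase, before Hspa8 at 845 and 526 CPM per kilobase. Hsp90aa1, the inducible form, stood at 719.7 against 507 CPM (1.42-fold (1.37 to 1.47) lower), though 58.5% of its 50-base stretches recur in other genes. There were 19.7 against 18.2 counts of Hsp90aa1 per 100 of Hsp90ab1, a 1.08-fold lower proportion (1.04 to 1.12). When adjusted for length and GC content this proportion was 1.38-fold lower (1.33 to 1.43). The cochaperones Stip1, which hands clients from HSP70 to HSP90, and Ahsa1, which stimulates the HSP90 ATPase, stood at 272 against 180.2 CPM (1.51-fold (1.43 to 1.59) lower) and 222 against 145 CPM (1.53-fold (1.44 to 1.63) lower). After adjustment the 4 log2 ratios were -0.34, -0.8004, -0.45 and -0.31 in the order named.

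TRiC is a double ring of 8 different subunits, and all 8 of their genes lay below equality without any reaching 2-fold. The lowest relative level was that of Cct3, at 334 against 202 CPM (1.65-fold (1.57 to 1.74) lower). Tcp1 stood at 575 against 399 CPM (1.44-fold lower), Cct5 at 516 against 359 CPM (1.44-fold), Cct7 at 336 against 245 CPM (1.37-fold) and Cct6a at 256 against 204 CPM (1.25-fold). The smaller differences were those of Cct2, at 531 against 428 CPM (1.24-fold), Cct8, at 309.9 against 269 CPM (1.15-fold), and Cct4, at 246 against 233 CPM with a ratio of 0.948 (0.901 to 0.998). The subunits of 1 complex thus did not differ by 1 common factor: there were 136 against 86.7 Cct3 counts per 100 of Cct4, a 1.57-fold lower proportion (1.46 to 1.68). When adjusted for length and GC content this proportion was 1.37-fold lower (1.28 to 1.47). This pair holds the lowest and the highest ratio of the 8. The median log2 ratio of the 8 was -0.39 and -0.35 when adjusted for length and GC content, with all 8 below equality both times. After adjustment for length alone Cct4 lay just above it. Of the paralogues of TRiC subunits, Cct6b had 13 against 5 counts and Cct8l1 was at 0 in both libraries.

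Small heat shock proteins, which hold unfolded proteins without ATP, were hardly expressed. The 8 genes of this group were placed here by the name Hspb alone, whatever their products do. Only Hspb6 was counted, at 17.9 against 20.8 CPM with a ratio of 1.16 (0.967 to 1.396). Hspb1, the widely expressed HSP25 gene, had 3 against 1 counts, Hspb3 7 against 1 counts, Hspb9 6 against 0 counts and Hspb11 1 against 2 counts, and Hspb2, Hspb7 and Hspb8 were at 0 in both libraries.

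BAG proteins exchange nucleotide on HSP70 and tie it to other pathways. Bag2, at chr1:33745484-33757795 (minus strand), whose product restrains the ubiquitin ligase CHIP, had 168 against 80 counts, or 13.8 CPM (11.8 to 16.1) against 6.28 CPM (4.98 to 7.82). It was 2.198-fold (1.67 to 2.91) lower, the single call of the group, and came just under 2-fold, at a log2 ratio of -0.99 (-1.39 to -0.596), after adjustment. Bag1 stood at 191 against 156 CPM (1.22-fold (1.15 to 1.297) lower), with a log2 ratio that turned from -0.29 to 0.11 after adjustment. Bag3, a stress-induced HSF1 target that directs clients to autophagy, stood at 29.8 against 25.99 CPM with a ratio of 0.871 (0.748 to 1.01). Bag4 was 1.29-fold (1.11 to 1.504) higher (turning to -0.13 on the log2 scale after adjustment) and Bag5 had a ratio of 1.15 (0.992 to 1.34). Bag6, a gene of wide expression, is listed at 0 in both libraries.

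Of the heat shock factors, Hsf1, the main regulator of the heat shock response, stood at 96.1 against 59.4 CPM and was 1.62-fold (1.48 to 1.78) lower, with a log2 ratio of -0.69 that became -0.28 (-0.41 to -0.14) after adjustment. Hsf2 stood at 11.5 against 13.5 CPM with a ratio of 1.17 (0.933 to 1.48). Hsf4 had 21 against 10 counts and Hsf2bp 3 against 3 counts, and Hsf3 and Hsf5 were at 0 in both libraries. Textbook HSF1 targets did not share 1 size of difference before adjustment. Dnajb1 was 2.14-fold lower, Hspe1 2.61-fold, Hsph1 1.68-fold, Hsp90aa1 1.42-fold and Hspd1 1.25-fold. After adjustment Dnajb1, Hspe1, Hsph1 and Hsp90aa1 lay nearer together, at 2.08-fold, 1.87-fold, 2.02-fold and 1.74-fold lower, and Hspd1 was 1.29-fold lower. The interval of Bag3 held equality before and after adjustment, and Hspa1a, Hspa1b and Hspb1 were near 0.

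The other genes of the folding network, taken from lists of non-members, stood on the same side. Of 44, all counted, 37 lay below equality, with 4 called lower and 1 higher, shares near and below those of all genes (8.95% and 10.8%), and a median log2 ratio of -0.38. Among 16 HSP90 and HSP70 cochaperones, Fkbp4, an HSP90-bound immunophilin gene, stood at 338 against 166 CPM (2.04-fold (1.94 to 2.15) lower) and Stub1, which encodes the ubiquitin ligase CHIP, at 184 against 88.7 CPM (2.08-fold (1.93 to 2.23) lower). Fkbp5, a glucocorticoid-induced relative of Fkbp4, had 20 against 55 counts and was 2.63-fold (1.55 to 4.63) higher. After adjustment the log2 ratios of Fkbp4 and Stub1 were -0.705 and -0.497, under 2-fold, and that of Fkbp5 was 1.25. Another 3 of the 16 passed 2-fold lower only after adjustment: Cdc37, which loads kinases onto HSP90, at -1.25, Sugt1 at -1.12 and Chordc1 at -1.02, from -0.75, -0.38 and -0.32 before it. The adjustment used their longest annotated transcripts, of 7851, 7392 and 5789 bases, which need not be the ones expressed. Of 6 prefoldin genes, whose product hands clients to TRiC, 1 was called lower: Pfdn6, with 39 against 11 counts (3.71-fold (1.86 to 8.03) lower). None of 10 other mitochondrial chaperone and protease genes was called, with a median of -0.36. Of 12 ER chaperone genes only Calr was called, at 2.06-fold (2.02 to 2.0998) lower and at a log2 ratio of -0.96, under 2-fold, after adjustment. After it Hspa5, the HSP70 of the ER, and Dnajb9, its J-protein partner, were past 2-fold lower, at -1.09 and -1.09, from -0.79 and -0.86. Over all 44 genes the adjusted counts were 6 lower (all genes 5.55%) and 1 higher (all genes 7.77%).

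Immediate early genes, which cells switch on within minutes of a stimulus or of handling, moved in the same direction and further. All 13 listed ones lay below equality and 11 were called lower (all genes 8.95%), with a summed level of 7800.4 against 2813 CPM and a median log2 ratio of -1.31. Among them Jun stood at 1664 against 418 CPM and Fosb at 1117 against 231 CPM. After adjustment all 13 still lay below equality but 6 were past 2-fold (all genes 5.55%): Atf3, Egr1, Fos, Fosb, Ier3 and Jun. The chaperone median of -0.33 was much nearer to equality. The part of a difference in handling or stimulation in the chaperone values was not tested.

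**Figure D4:**
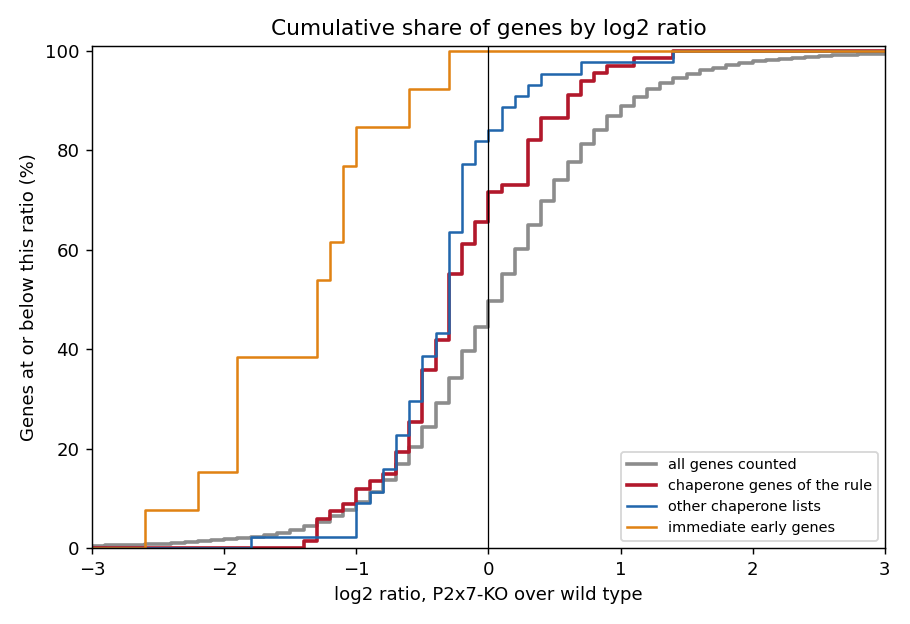
Cumulative percentage of genes (y) at or below each log2 ratio (x, library labelled P2x7-KO over library labelled wild type) for all 13363 genes counted, the 67 chaperone genes, the 44 genes of the other chaperone lists and 13 immediate early genes. The chaperone curve runs left of that of all genes near equality and close to it at the lower end, and the immediate early curve lies far to the left.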

How the data were processed

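RNA of 2 mouse libraries, 1 per genotype label, was analysed from 1 deposited table of raw counts per gene with no rows for unassigned reads and 0 unused value columns. The submitters' processing notes name HISAT2 2.0.4 and the build mm10. How the authors counted reads (program, annotation, strand, multiply matching reads) is not stated in the labels, so overlapping or copied genes are uncertain. Counts were scaled with TMM (edgeR 4.0.16, R 4.3.3) over all genes. Ratios carry exact Clopper-Pearson 95% counting intervals, CPM exact Poisson ones, and reads are not independent molecules. Calls needed 20 counts over both libraries. List medians add 0.5 to each count. Transcript length and GC content came from the longest protein-coding GENCODE M21 transcript, which need not be the one expressed, and the adjustment removed a spline fit with 5 degrees of freedom for each over 12374 genes. Shared stretches are 50-base words of that transcript found in transcripts of other genes. Promoter sequences are RefSeq's (GRCm38.p6). The interval was tested on simulated counts. Genes named are the called ones, the counted members of each small family and the J-proteins with the nearest interval bound farthest from equality. The others are listed by name, and further ones were chosen after their values were seen. The members and lists were chosen with earlier results of these data known. Alternatives were other scalings (total count, DESeq2 1.42.0, upper quartile, TMM without ribosomal protein and mitochondrially encoded genes), other count minimums and thresholds, the adjustments, and Hspa1a and Hspa1b summed. Some items are not reported here.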

Additional observations from a re-analysis of the deposited data

How the results depend on the processing

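The count of 7 chaperone genes at least 2-fold lower became 4 with a count minimum of 100, 2 where the whole interval had to lie beyond 2-fold, and 16 at a ratio of 1.5. The count of 2 higher became 0 after adjustment for transcript length, 1 after adjustment for length and GC content, 1 where the whole interval had to lie beyond 2-fold, and 5 at a ratio of 1.5. The median log2 ratio of -0.33 became -0.22 after adjustment for transcript length and ranged from -0.36 to -0.26 under the other scalings. Without the 25 genes that share over 5% of their 50-base stretches, an alternative chosen after seeing the data, 5 of 42 were lower and 2 higher, with a median of -0.28. No called gene changed sign under the scalings and adjustments tried. Of the genes counted, 3 changed sign under another scaling and 12 under an adjustment. No paired analysis was possible because each genotype label has 1 library. Leaving out a library would leave no comparison. Depth limits genes with few counts, where a 2-fold difference can lie within counting error. This also holds just above the minimum of 20 counts, as for Hsf4 with 21 against 10.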

Other observations

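Of 16 rows that are named after copies of these chaperone genes and that the table types as non-coding, 14 were at 0 in both libraries. Hspd1-ps3, a copy of Hspd1, had 128 against 109 counts, a ratio of 0.813 (0.624 to 1.059). It stood beside the ratio of 0.799 of its parent gene Hspd1, and how far reads of parent and copy were shared in the counting was not tested.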
